A study of Homo sapiens with 44 samples.

Results

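The enzymes described here build purine nucleotides from small precursors. They are the 10 genes PRPS1, PPAT, GART, PFAS, PAICS, ADSL, ATIC, IMPDH1, IMPDH2 and GMPS, chosen by name as the enzymes from phosphoribosyl pyrophosphate (PRPP) to GMP, with the lyase that also serves the AMP branch. The choice was made with earlier results of these data known. All 10 were among the 23367 gene rows of the count table, and all 10 were among the 14534 genes that passed the filter on low counts. RNA was sequenced from IMR5/75 cells, an established line of MYCN-amplified human neuroblastoma, in which tetracycline induces a short hairpin RNA (shRNA) against MYCN. Every culture carried the hairpin construct, was held at the G1/S transition by 18 h of thymidine, and was harvested at 0, 3, 6, 8, 10, 12, 14, 16, 18, 20 or 22 h after washout. The Tet minus groups had no tetracycline and the Tet plus groups had it, with 2 biological replicates at each time, which gave 22 groups and 44 libraries. There was no control hairpin and no tetracycline control without the hairpin, so lowered MYCN, tetracycline itself and off-target action of the hairpin cannot be told apart. The labels give neither the time on tetracycline before release nor whether the line is a single clone.

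De novo purine synthesis starts when PPAT transfers an amide nitrogen from glutamine to PRPP, and the purine ring is then built on the ribose stepwise up to inosine monophosphate (IMP). IMP is the branch point: adenylosuccinate synthetase and ADSL lead to AMP, and IMP dehydrogenase and GMPS lead to GMP. Dividing cells draw on this route for DNA, RNA and GTP, and several of its genes are known targets of MYC family proteins, which bind the E-box hexamer CACGTG together with MAX.

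Promoter sequences are shown because the CACGTG hexamer is the textbook site of the factor that the hairpin targets. The part of this hexamer in the arm difference was not tested. RefSeq windows (GRCh38.p14) of 300 bases, from 250 bases before to 50 bases after an annotated start, were matched by symbol for 8 of the 10 enzymes, and ADSL and IMPDH2 had none in the table used. CACGTG, which reads the same on both strands, lay in a window of 3 of these 8 genes (PPAT, PAICS and ATIC), while 7.26% of all 35116 windows and 8.77% of all 27305 genes held it. ATIC had it at 2 places, the first within the 250 bases before its start at chr2:215311809-215312058 (plus strand), with CACGTG in capitals.
ATIC: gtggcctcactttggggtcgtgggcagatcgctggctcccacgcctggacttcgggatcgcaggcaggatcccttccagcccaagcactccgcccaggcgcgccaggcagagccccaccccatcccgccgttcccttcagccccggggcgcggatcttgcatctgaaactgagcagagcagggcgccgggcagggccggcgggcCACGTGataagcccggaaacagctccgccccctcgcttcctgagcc
The second lay within the transcribed part, and 30 bases around it at chr2:215312076-215312105 (plus strand) are shown.
ATIC transcribed part: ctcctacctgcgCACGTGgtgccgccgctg

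PPAT and PAICS are divergent neighbours on chromosome 4, with annotated starts 137 bases apart, and their windows share 236 bases. Their single CACGTG is therefore 1 site counted for both genes. It lies just inside the PAICS transcript and upstream of PPAT, at the centre of chr4:56435780-56435809, shown on the PPAT (minus) strand.
PPAT and PAICS: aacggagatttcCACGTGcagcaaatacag
The stretch of 136 bases between both starts, chr4:56435616-56435751 (plus strand), is printed with the GC box GGGCGG in capitals, the letters bound by Sp1-like factors.
Between PPAT and PAICS: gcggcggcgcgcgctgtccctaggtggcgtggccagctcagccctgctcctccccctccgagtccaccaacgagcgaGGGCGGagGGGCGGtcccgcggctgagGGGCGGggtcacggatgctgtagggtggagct
GGGCGG, searched on both strands, was in a window of all 8 genes, beside 45.0% of all windows and 48.3% of all genes. CCAAT, searched on both strands, was in a window of GART and PRPS1, beside 34.6% of all windows and 39.7% of all genes. The E-box variant CATGTG, searched on both strands, was in a window of PAICS and PFAS, beside 11.1% of all windows and 13.4% of all genes. GART and PAICS had several windows each. The CATGTG of PAICS lay in the window chr4:56410257-56410556, away from the stretch shared with PPAT. These matches describe letters in the windows and are not measured binding.

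Libraries held 10.9 to 25.3 M (mega) gene counts (median 20.1 M). The 8 Tet plus libraries at 16 to 22 h stood apart: their lane numbers are not those of Tet minus at the same times, and they had 10.9 to 19.8 M counts. ERCC spike-in transcripts took 0.0543% to 0.376% of their counts, against 1.13% to 3.43% in Tet minus, so arm and sequencing lanes cannot be told apart at 16 to 22 h, and that period is given separately throughout. MYCN itself lay between 970 and 1479 CPM (counts-per-million units on TMM library sizes) in the 14 Tet minus libraries of 0 to 14 h, and between 938 and 1213 CPM in the 14 Tet plus libraries. Its mean was 17.3% lower in Tet plus (log2 difference -0.27, SE 0.0460, edgeR adjusted p = 2.71e-05), and 16.5% lower at 16 to 22 h (log2 -0.26, adjusted p = 0.000787). With libraries scaled to the spike-in transcripts the MYCN difference at 0 to 14 h was -0.15 (SE 0.327) and its call was lost. At 16 to 22 h that scaling turned it to 4.12. The MYCN ranges overlapped between the arms, and without a known strand setting its counts may hold reads of the antisense gene MYCNOS. Noradrenergic neuroblastoma markers were present in every library, with HAND2 at 256 to 622 CPM, while TH, the first enzyme of catecholamine synthesis, was at most 0.206 CPM. Of the 9 noradrenergic markers tested at 0 to 14 h, 4 were higher in Tet plus (7 with the replicate block) and 0 lower. Without the block 20.1% of all tested genes were higher and 21.3% lower. The 6 epithelial markers summed to at most 2.58 CPM and the 5 leukocyte markers to at most 4.60 CPM in any library, with KRT19 and CD3E at 0 throughout. The 7 fibroblast and mesenchymal markers summed to 73.4 to 252 CPM in Tet minus and 80.6 to 272 CPM in Tet plus libraries, mostly from COL3A1 (42.5 to 213.5 CPM). At 0 to 14 h 1 of the 6 tested was higher and 0 lower (3 and 1 with the replicate block), and the part of other cells in the enzymes' values was not tested.

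All 10 enzyme transcripts were lower in Tet plus than in Tet minus cells at 0 to 14 h, the period in which both arms shared lanes. Of all tested genes, 21.3% were lower and 20.1% were higher in this comparison (quasi-likelihood test of edgeR, p-values adjusted by Benjamini-Hochberg over all tested genes, threshold 0.05). The enzymes' log2 differences ran from -0.68 to -0.28 with a median of -0.45, beside a median of 0.01 over all tested genes. Among 140 combinations of an enzyme and a library pair of the same time and replicate number, Tet plus was lower in 137. The 3 exceptions were all ATIC. The share of such combinations over all genes was not computed, and the enzymes were read in the same libraries. With libraries scaled to the spike-in transcripts in place of TMM, the 10 differences stayed negative (median -0.36, all-gene median 0.13) but none passed the threshold. Their SEs were 0.335 to 0.343 on that scaling, against 0.0480 to 0.160 on TMM. The spike-in share ranged from 0.806% to 4.25% in Tet minus and from 0.736% to 5.85% in Tet plus libraries at 0 to 14 h. Only 48 genes passed on that scaling, so it could hardly call differences of this size. CPM values are shares of a library, so fewer cells of a kind and less RNA per cell cannot be told apart, and a change in total RNA is not measured.

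**Figure D1:**
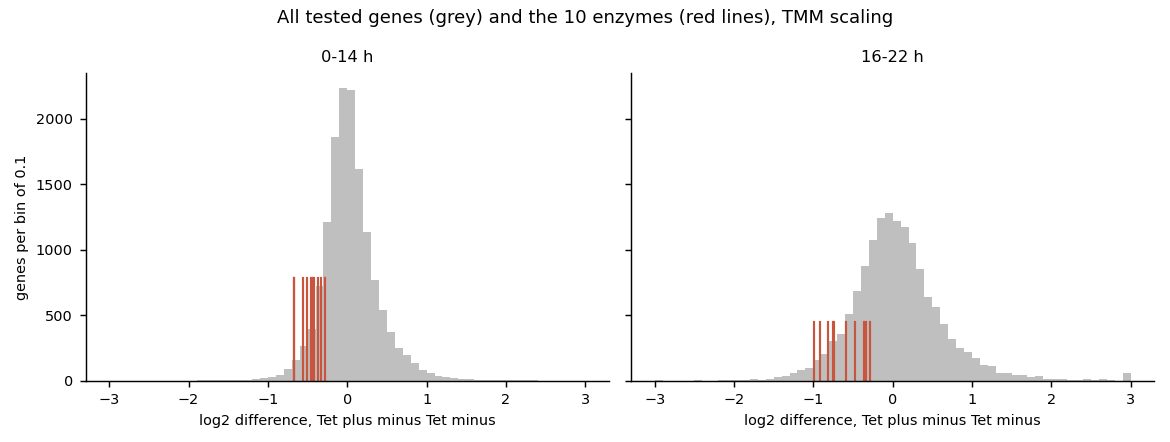
Histograms of the log2 difference (Tet plus minus Tet minus, x axis) over all 14534 tested genes in bins of 0.1 (y axis, genes per bin, values beyond 3 counted in the end bins), with the 10 enzymes as red lines, at 0 to 14 h (left) and 16 to 22 h (right), with TMM scaling. All 10 lines lie below 0 in both panels, although on spike-in scaling those of 16 to 22 h are above 0.

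PRPS1 makes PRPP, the ribose donor of the pathway, from ribose 5-phosphate and ATP. At 0 to 14 h it lay at 54.0 to 76.8 CPM (median 63.6) in Tet minus and at 34.4 to 59.5 CPM (median 45.2) in Tet plus libraries. The arms overlapped over the period as a whole, but both Tet plus libraries were below both Tet minus libraries at 6 of the 7 times. PRPS1 was 29.5% lower in Tet plus (log2 -0.50, SE 0.0598, edgeR adjusted p = 1.73e-07).

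PPAT, the amidophosphoribosyltransferase, catalyses the committed step. It ranged from 133 to 312 CPM (median 190.2) in Tet minus and from 100.5 to 155 CPM (median 116) in Tet plus libraries at 0 to 14 h. The arms were apart at each of the 7 times, and the Tet minus values spread more widely than the Tet plus values. PPAT was 37.3% lower in Tet plus (log2 -0.67, SE 0.0790, edgeR adjusted p = 1.38e-07). With IMPDH1 it had the lowest estimate of the 10, and the 2 estimates differed by less than either SE.

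GART is a trifunctional protein that carries the second, the third and the fifth step of the ring assembly, and PFAS catalyses the fourth, a glutamine-dependent amidation. GART lay at 120.5 to 186 CPM (median 156) in Tet minus and at 98.6 to 151 CPM (median 131) in Tet plus libraries at 0 to 14 h. It had the estimate closest to 0 of the 10, with 17.6% less in Tet plus (log2 -0.28, SE 0.0684, edgeR adjusted p = 0.00173). In each of the 14 library pairs GART was nevertheless lower in Tet plus. PFAS lay at 201 to 299.7 CPM (median 231) in Tet minus and at 133 to 182 CPM (median 156) in Tet plus libraries. Every Tet plus library was below every Tet minus library. PFAS was 32.3% lower (log2 -0.56, SE 0.0480, edgeR adjusted p = 5.56e-10), the smallest adjusted p of the 10.

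PAICS is bifunctional and carries the sixth and seventh steps, a carboxylation and the addition of aspartate. It lay at 261 to 422 CPM (median 313.5) in Tet minus and at 178.5 to 338 CPM (median 221) in Tet plus libraries at 0 to 14 h. The arms overlapped, and at 3 and 10 h they overlapped within the time point too. PAICS was 27.4% lower in Tet plus (log2 -0.46, SE 0.0814, edgeR adjusted p = 5.02e-05). ADSL, adenylosuccinate lyase, acts at the eighth step and again in the last step to AMP. ADSL lay at 187 to 275 CPM (median 229) in Tet minus and at 128 to 212 CPM (median 179) in Tet plus libraries, and the arms were apart at each of the 7 times. It was 25.2% lower in Tet plus (log2 -0.42, SE 0.0547, edgeR adjusted p = 7.42e-07).

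ATIC carries the last 2 steps to IMP, a formyl transfer from tetrahydrofolate and the ring closure. It was the enzyme with the widest spread between replicates: the median gap within a group was 1.33-fold, and the largest was 3.53-fold, in Tet plus cells at 0 h, where the replicates read 24.6 and 86.9 CPM. ATIC lay at 32.9 to 92.4 CPM (median 56.8) in Tet minus and at 24.6 to 86.9 CPM (median 39.0) in Tet plus libraries at 0 to 14 h. The arms were apart at 4 of the 7 times, those from 8 to 14 h, and overlapped at 0, 3 and 6 h. ATIC was 25.7% lower in Tet plus (log2 -0.43, SE 0.160, edgeR adjusted p = 0.0332). This call was lost when any of 14 of the 28 libraries was left out (largest adjusted p 0.116, without the second Tet minus library at 3 h) and when only the 28 libraries were fitted (adjusted p = 0.0743). These 14 were Tet minus at 6, 8, 12 and 14 h (replicate 1) and at 0, 3 and 10 h (replicate 2), and Tet plus at 0, 3, 6, 10 and 12 h (replicate 1) and at 8 and 14 h (replicate 2).

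IMPDH1 and IMPDH2 are the 2 isoenzymes of IMP dehydrogenase, the first and rate-limiting step to GMP, and GMPS then aminates the product to GMP. IMPDH1 lay at 79.9 to 122 CPM (median 102) in Tet minus and at 47.9 to 77.3 CPM (median 67.0) in Tet plus libraries at 0 to 14 h. As for PFAS, no Tet plus library reached the lowest Tet minus library. IMPDH1 was 37.5% lower in Tet plus (log2 -0.68, SE 0.0612, edgeR adjusted p = 1.76e-09). Such a complete separation was seen for 2 of the 10 enzymes and for 1.09% of all tested genes. IMPDH2, the isoenzyme that is usually raised in proliferating cells, lay at 162 to 225 CPM (median 185) in Tet minus and at 121 to 168.5 CPM (median 147) in Tet plus libraries. Within a time point its arms overlapped at 8 h and at no other time. IMPDH2 was 22.5% lower (log2 -0.37, SE 0.0566, edgeR adjusted p = 8.89e-06). GMPS lay at 91.4 to 132.5 CPM (median 112) in Tet minus and at 70.7 to 109 CPM (median 85.9) in Tet plus libraries, and the arms overlapped at 3, 6 and 10 h. GMPS was 20.8% lower (log2 -0.34, SE 0.0680, edgeR adjusted p = 0.000257).

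**Figure D2:**
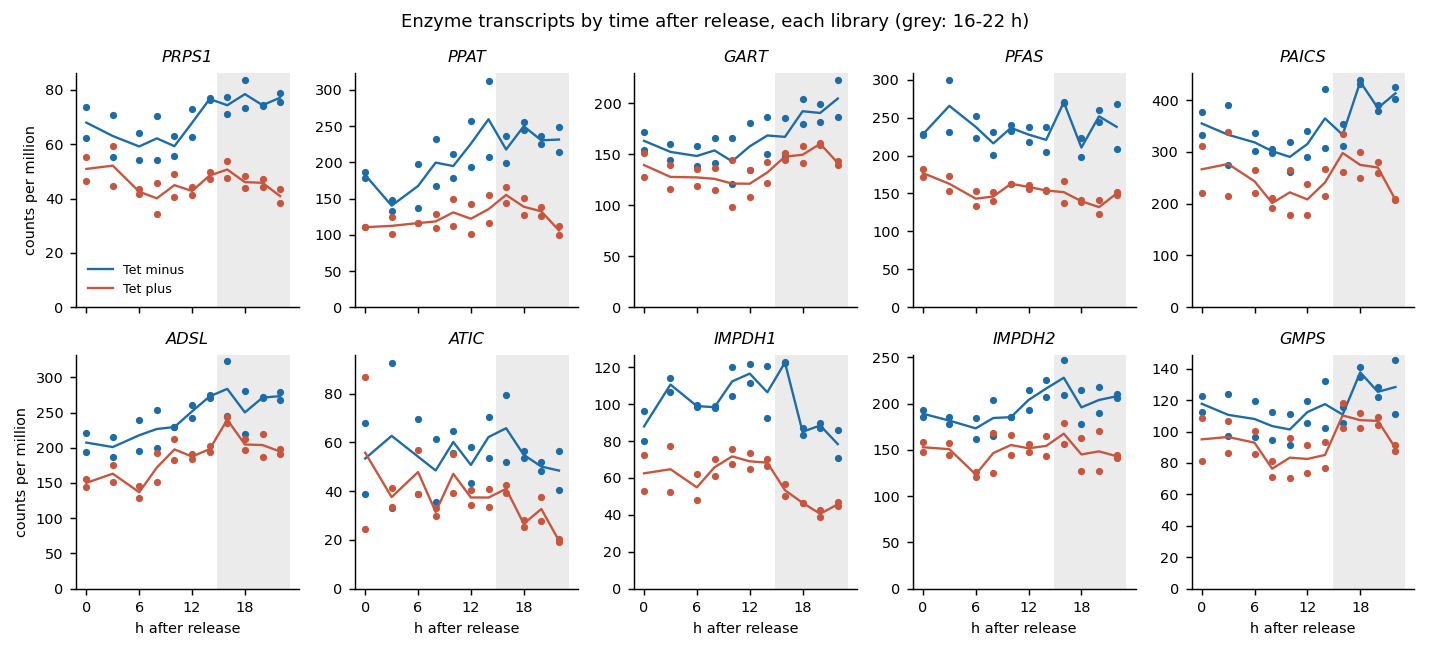
CPM (y axis, linear from 0) of each enzyme against hours after release (x axis), with each library as a point and the mean of the 2 replicates as a line, in Tet minus (blue) and Tet plus (red) cells. Grey marks 16 to 22 h, where the Tet plus libraries come from other lanes. The red line lies below the blue line at all 11 times for each enzyme but ATIC, where it is above at 0 h.

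In terms of the route, the 2 steps with the lowest estimates were the committed step and 1 of the isoenzymes at the guanine branch, while GART, GMPS and IMPDH2 had the estimates closest to 0. Several neighbours in this order differed by less than their SE, such as PAICS, ATIC and ADSL. Single-gene values carry a limit from sequence copies and overlaps. RefSeq lists 11 pseudogenes named after IMPDH1, 7 after PAICS, 2 each after PRPS1 and PPAT and 1 after GMPS. PPAT and PAICS overlap each other, PFAS overlaps CTC1, ADSL overlaps SGSM3 and ATIC overlaps FN1, and no source used here states the strand setting of the counting.

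At 16 to 22 h all 10 enzymes were again lower in Tet plus on TMM scaling, beside 26.8% of all tested genes, but all 10 were higher when libraries were scaled to the spike-in transcripts (log2 3.41 to 4.10, all-gene median 4.40). On TMM scaling the median log2 difference was -0.66, beside 0.02 over all genes. Tet plus was lower in 79 of 80 combinations of an enzyme and a library pair, with GMPS at 16 h as the exception. Here too the share over all genes was not computed. IMPDH1 lay at 70.8 to 123 CPM (median 87.2) in the 8 Tet minus and at 38.6 to 56.6 CPM (median 46.5) in the 8 Tet plus libraries, 49.8% lower (log2 -0.99, SE 0.0824, edgeR adjusted p = 1.29e-10). The arms did not overlap for IMPDH1. ATIC lay at 40.3 to 79.5 CPM in Tet minus and at 18.9 to 42.5 CPM in Tet plus libraries (log2 -0.91, SE 0.217, edgeR adjusted p = 0.000922), and its 2 ranges overlapped slightly.

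Complete separation at 16 to 22 h was seen for PRPS1, PPAT, PFAS and IMPDH1, which is 4 of the 10 enzymes beside 9.52% of all tested genes. PPAT lay at 199 to 255 CPM in Tet minus and at 99.4 to 165 CPM in Tet plus libraries (log2 -0.82, SE 0.105). PFAS lay at 197.5 to 271 CPM in Tet minus and at 123 to 166 CPM in Tet plus libraries (log2 -0.75, SE 0.0638). PRPS1 lay at 71.2 to 83.6 CPM in Tet minus and at 38.3 to 53.8 CPM in Tet plus libraries (log2 -0.73, SE 0.0798). The other log2 differences were -0.58 for PAICS, -0.47 for IMPDH2, -0.36 for ADSL, -0.33 for GART and -0.28 for GMPS, whose edgeR adjusted p of 0.0107 was the largest of the 10. In these Tet plus libraries small nucleolar and Cajal body RNAs also took 0.935% to 2.41% of gene counts, against 0.289% to 0.713% in Tet minus, and the part of this in the enzymes' values was not tested. Both periods were compared in separate libraries, and whether the arm difference itself changed from one to the other was not tested.

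**Figure D3:**
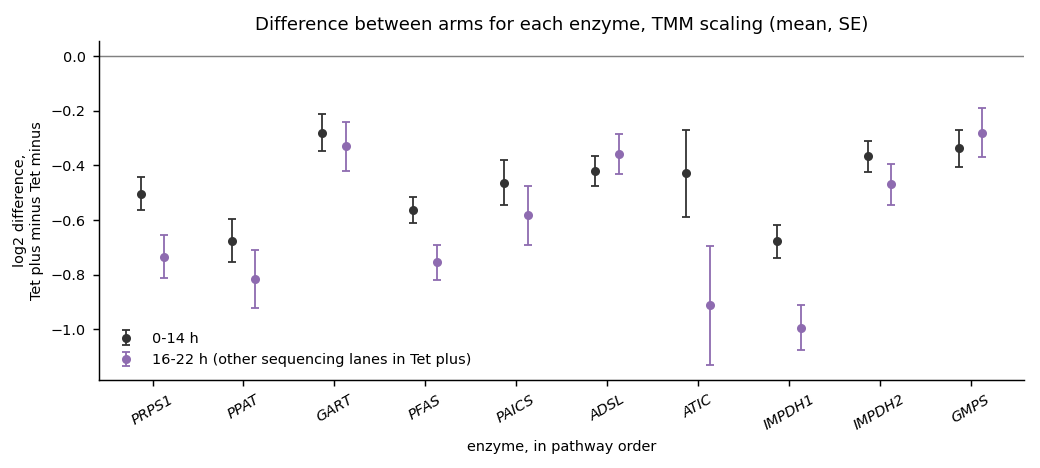
Log2 difference (Tet plus minus Tet minus, y axis) of each enzyme in pathway order (x axis) at 0 to 14 h (black) and 16 to 22 h (purple), as the edgeR estimate with its SE, on TMM scaling. All 20 points lie below 0 here, but on spike-in scaling the 10 purple points are above 0.

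Time by time, the log2 difference was negative in 69 of the 70 enzyme and time combinations at 0 to 14 h, all but ATIC at 0 h (0.06), and in 40 of 40 at 16 to 22 h, where GMPS at 16 h was at -0.01. The share of negative combinations over all genes was not computed, and the enzymes were read in the same libraries. Both Tet plus libraries were below both Tet minus libraries in 59 of the 70 combinations at 0 to 14 h, beside 21.8% of such combinations over all genes, and in 37 of 40 at 16 to 22 h, beside 31.4%. With 2 libraries a group, single times passed the threshold less often: 20 of 70 combinations at 0 to 14 h. At 0 h, 0 of 10 enzymes passed, beside 1.00% of all genes lower; 5 had an unadjusted p under 0.05 (PRPS1, PPAT, PFAS, ADSL and IMPDH1) and DESeq2 called 0. At 3 h 2 passed (all genes 1.70%), at 6 h 4 (4.44%), at 8 h 4 (2.06%), at 10 h 2 (2.04%), at 12 h 4 (2.57%) and at 14 h 4 (3.34%). PFAS and IMPDH1 passed at 6 of these 7 times each, all but 0 h.

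With the replicate number as a single block term over all 44 libraries, 43 of the 70 combinations passed (6.35% over all genes, against 2.45% without a block). With the number within lane set as a block, which follows the lanes, 52 passed (8.66%). At 0 h the blocks gave 5 enzymes (all genes 4.15%) and 7 enzymes (6.25%). PPAT, for example, read 178 and 186 CPM in Tet minus and 111 and 110 CPM in Tet plus cells at 0 h, at the end of the thymidine block. At 16 to 22 h 26 of 40 combinations passed: 4 at 16 h (all genes lower 14.0%), 6 at 18 h (11.2%), 6 at 20 h (13.7%) and 10 at 22 h (16.3%). The blocks gave 30 (all genes 18.9%, against 13.8% without a block) and 31 (19.8%) of the 40; both added PPAT at 16 h, GART and GMPS at 18 h and PAICS at 20 h, and the block by lane set also ATIC at 18 h. At 22 h PPAT read 215 and 248 CPM in Tet minus and 113 and 99.4 CPM in Tet plus cells (log2 -1.13, SE 0.211, edgeR adjusted p = 0.000237).

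MYCN itself passed at 2 of the 11 single times (4 with the replicate block). At 12 h it read 1479 and 1446 CPM in Tet minus and 1057 and 1092 CPM in Tet plus cells (log2 -0.45, SE 0.122, edgeR adjusted p = 0.0343), a call lost when any single one of these 4 libraries was left out (adjusted p up to 0.275), with no filter (0.0841) and on spike-in scaling (log2 0.01). At 16 h it read 1417 and 1408 CPM against 871 and 1012 CPM (log2 -0.59, SE 0.122, edgeR adjusted p = 0.000826; 3.94 on spike-in scaling). At 22 h it read 1091 and 1244 CPM against 1048 and 1242 CPM (log2 -0.03, SE 0.122, edgeR adjusted p = 0.889).

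**Figure D4:**
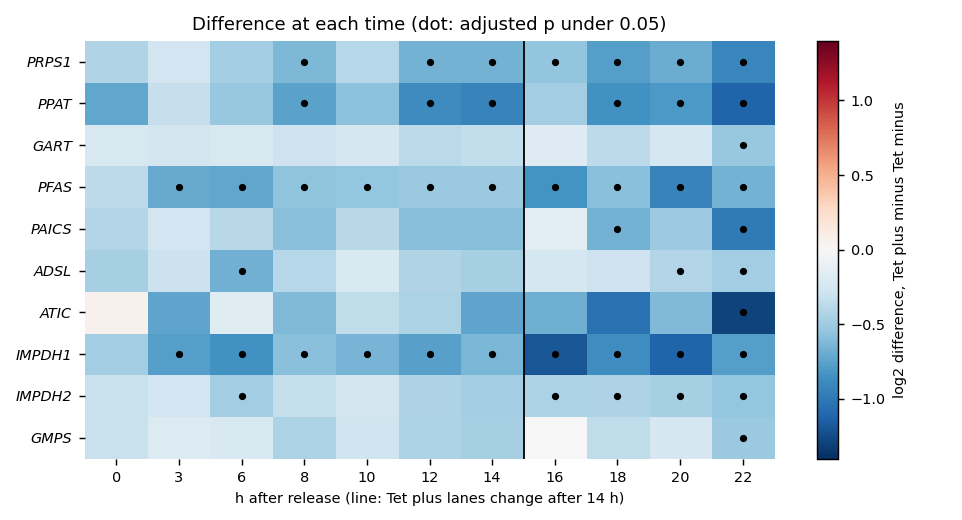
Log2 difference between the arms (colour, Tet plus minus Tet minus, TMM scaling) for each enzyme (rows, pathway order) at each time after release (columns, h), with a dot where the edgeR adjusted p was under 0.05. Dots fall in 20 of the 70 cells left of the line and in 26 of the 40 cells right of it, where Tet plus lanes differ and spike-in scaling turns the sign.

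The arm difference of the enzymes was not shown to depend on the time after release within 0 to 14 h. In the test of the arm by time terms 0 of 10 enzymes passed, 0 had an unadjusted p under 0.05 and DESeq2 called 0; over all genes 0.0138% passed. The median log2 difference of the enzymes moved between -0.57 (8 h) and -0.29 (3 h) over these times. For 15 genes of the G1/S transition, such as MCM2, CDC6 and PCNA, the median log2 difference was -0.24 at 0 h, -0.16 at 3 h and -0.96 at 14 h. Over 0 to 14 h as a whole 13 of these 15 were lower in Tet plus (15 with the replicate block) and 0 higher (median -0.48). Of 14 G2/M genes 2 were lower (4 with the replicate block) and 2 higher (median -0.01). This average hides a change of sign along the course. The G2/M median was -0.16 at 0 h and -0.31 at 8 h, but 0.18 at 10 h and 0.24 at 14 h. Without the block the shares over all tested genes were 21.3% lower and 20.1% higher. The part of a shift in cell cycle timing in the enzymes' values was not tested.

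Within an arm the median range of the enzymes along the course was below that of the cell cycle genes, and the ranges of single enzymes and single G1/S genes overlapped. From 0 to 14 h the group means of an enzyme spanned 0.22 to 0.86 in log2 in Tet minus cells (median 0.35) and 0.22 to 0.58 in Tet plus cells (median 0.36). The median range was 2.00 and 2.01 for the G2/M genes, 0.80 and 0.87 for the G1/S genes, and 0.53 and 0.49 for all genes. In the test over the 7 times 1 of 10 enzymes passed in Tet minus (all genes 14.5%) and 0 of 10 in Tet plus (all genes 10.4%), where ADSL alone had an unadjusted p under 0.05. With the replicate block 2 passed in Tet minus (all genes 34.3%) and 1 in Tet plus, and with the block by lane set 2 (all genes 35.1%) and 2 (all genes 26.9%). All 14 G2/M genes passed in each arm, and 11 and 12 of the 15 G1/S genes. Lane sets change along the course, so these tests hold lane differences too.

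The enzyme that passed was PPAT. In Tet minus cells it read 148 and 133 CPM at 3 h, its lowest mean, and 207 and 312 CPM at 14 h, its highest, a range of 1.81-fold in the means (edgeR adjusted p = 0.0497). In Tet plus cells its range was 1.21-fold (adjusted p = 0.942). The PPAT call was lost when any single one of 9 of the 14 Tet minus libraries was left out, namely both at 0, 3 and 10 h, replicate 1 at 6 h and replicate 2 at 12 and 14 h (adjusted p up to 0.203). It was also lost with RLE factors (0.0563), with no filter (0.0551), with only the libraries compared (0.171) and with spike-in scaling (0.926). ADSL had the lowest adjusted p in Tet plus, 0.0572. It read 145 and 128 CPM at 6 h and 194 and 202 CPM at 14 h, a range of 1.45-fold, and passed with DESeq2, with the replicate block (adjusted p = 0.00355; all genes 25.9%) and without the second library at 8 h (adjusted p = 0.0357).

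Contrasts within a lane set gave few calls. From 0 to 6 h 0 of 10 enzymes passed in Tet minus (all genes 2.35%; unadjusted 0, DESeq2 0). In Tet plus 0 passed (all genes 2.50%; DESeq2 0), where PFAS and IMPDH2 had unadjusted p under 0.05. From 8 to 12 h 0 passed in Tet minus (all genes 0.833%) and 0 in Tet plus (all genes 0.220%), with 0 at an unadjusted p under 0.05 and 0 by DESeq2 in each arm. From 16 to 22 h IMPDH1 passed in Tet minus, as 1 of 10 enzymes (all genes 1.64%). It fell from 122 and 123 CPM to 85.8 and 70.8 CPM (log2 -0.65, SE 0.162, edgeR adjusted p = 0.0359), and the call was lost without either library at 16 h or the second at 22 h (adjusted p up to 0.548). With the replicate block 1 passed (all genes 12.3%), and with the block by lane set 2 (all genes 19.8%).

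In Tet plus cells 0 of 10 enzymes passed from 16 to 22 h (all genes 7.24%; DESeq2 0), and 4 had an unadjusted p under 0.05 (PPAT, PAICS, ADSL and ATIC). All 10 estimates were negative, with a median of -0.30 beside 0.03 over all genes. PAICS read 261 and 335 CPM at 16 h and 209 and 206 CPM at 22 h (log2 -0.52, SE 0.216, edgeR adjusted p = 0.140), while in Tet minus cells it read 312 and 354 CPM at 16 h and 401 and 425 CPM at 22 h (log2 0.31, SE 0.215, adjusted p = 0.440). The change differed between the arms by -0.83 for PAICS (SE 0.305, adjusted p = 0.0731). In this comparison, chosen after the values were seen, 0 of 10 enzymes passed (all genes 11.1%; DESeq2 0; unadjusted 2, PPAT and PAICS). With the replicate block PPAT and PAICS passed from 16 to 22 h in Tet plus, as 2 of 10 beside 18.3% of all genes. In the difference between the arms PPAT, PAICS and GMPS passed (adjusted p 0.0304, 0.00248 and 0.0170), as 3 of 10 beside 27.4% of all genes, so these shares are near the background. The block by lane set gave 5 enzymes in each of these comparisons, beside 23.0% and 33.1% of all genes. For MYCN the change from 16 to 22 h differed between the arms in the other direction, by 0.56 (SE 0.172, edgeR adjusted p = 0.0367), a call lost when any single one of 7 of the 8 libraries was left out, all but the first Tet plus library at 22 h (adjusted p up to 0.191), with no filter (0.115), with only the libraries compared (0.0682) and with spike-in scaling (1.00).

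Ratios of 2 transcripts within a library do not depend on the library's scaling. They were chosen after the values were seen and are given as descriptions; since counts are not corrected for length, only their difference between arms is read. The IMPDH1 to IMPDH2 ratio of CPM values was 0.414 to 0.648 (median 0.550) in Tet minus and 0.332 to 0.535 (median 0.437) in Tet plus libraries at 0 to 14 h. It was lower in Tet plus in 14 of 14 library pairs, with a mean log2 difference of -0.31 ± 0.170 (SD, n = 14 pairs), and in 8 of 8 pairs at 16 to 22 h (-0.52 ± 0.235, SD). IMPDH1 thus made up a smaller part of the isoenzyme pair in Tet plus libraries. The PPAT to PAICS ratio, of the 2 divergent neighbours, was 0.340 to 0.760 (median 0.625) in Tet minus and 0.354 to 0.630 (median 0.551) in Tet plus libraries at 0 to 14 h, lower in 11 of 14 pairs (-0.20 ± 0.201, SD). For PRPS1 and its paralogue PRPS2 the ratio at 0 to 14 h was lower in 4 of 14 pairs (0.06 ± 0.146, SD), and at 16 to 22 h in 0 of 8 (0.30 ± 0.186, SD).

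Genes that feed the pathway or use its products were compared in 6 lists, with calls at 0 to 14 h from the same test. Over all tested genes 21.3% were lower and 20.1% higher in that test. Formyl tetrahydrofolate supplies carbons to the ring at the GART and ATIC steps. Of 8 tested genes in this list 7 were lower in Tet plus and 0 higher (median log2 -0.31). The mitochondrial enzymes MTHFD1L, SHMT2 and MTHFD2 had log2 differences of -0.70 (SE 0.0885), -0.38 (SE 0.0574) and -0.41 (SE 0.0627), and cytosolic MTHFD1 of -0.44 (SE 0.0662). Among 6 salvage genes, which reuse bases and nucleosides, 4 were lower and 0 higher (median -0.35). APRT, which recovers adenine, had a log2 difference of -0.59 (SE 0.0585), PNP -0.45 (SE 0.0511), ADK -0.46 (SE 0.0870) and HPRT1, which recovers hypoxanthine and guanine, -0.25 (SE 0.0715).

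In the other lists a smaller share of the tested genes passed as lower than in the formyl tetrahydrofolate and salvage lists. Each of these shares was still above the 21.3% of all tested genes. Of 5 tested relatives of PRPP synthetase and enzymes of the adenine branch, 2 were lower and 0 higher: PRPS2 (log2 -0.57, SE 0.0558, edgeR adjusted p = 7.68e-09) and ADSS, adenylosuccinate synthetase (log2 -0.26, SE 0.0919, adjusted p = 0.0237). ADSS lost its call when any single one of 11 of the 28 libraries was left out and without the 0 h libraries (adjusted p = 0.0649). These 11 were Tet plus replicate 1 at 3, 6, 8, 10, 12 and 14 h and Tet minus replicate 2 at 6, 8, 10, 12 and 14 h. PRPSAP1, an associated protein of the synthetase, had a log2 difference of 0.14 (SE 0.0601, adjusted p = 0.0664), and ADSSL1 of 0.22 (SE 0.0990, adjusted p = 0.0731); both passed as higher with the replicate block (adjusted p 0.0374 and 0.0443). The median of this list was 0.07.

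Of 11 nucleotide kinases 5 were lower and 1 higher (median -0.08), with NME1 at -0.55 (SE 0.04998), NME4 at -0.40 (SE 0.0652) and AK4 at -0.56 (SE 0.119). Of 15 genes in the list of purine breakdown and interconversion 5 were lower and 2 higher (median -0.01). The list is broad and holds NT5C3, which acts mainly on pyrimidine nucleotides. NT5E, the ecto-enzyme that dephosphorylates AMP outside the cell, had a log2 difference of 1.29 and was the widest of this list, whereas ITPA (-0.31), NT5C3 (-0.31) and AMPD2 (-0.26), which removes the amino group of AMP, were lower. Of 8 pentose phosphate genes 3 were lower and 1 higher (median -0.18). RPIA, which makes ribose 5-phosphate, was at -0.69 (SE 0.0866), TKT at -0.26 (SE 0.0552), RPE at -0.25 (SE 0.0655), and H6PD, the dehydrogenase of the endoplasmic reticulum, at 0.70 (SE 0.0711). The lists were written with earlier results of these data known, so their counts are a description.

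**Figure D5:**
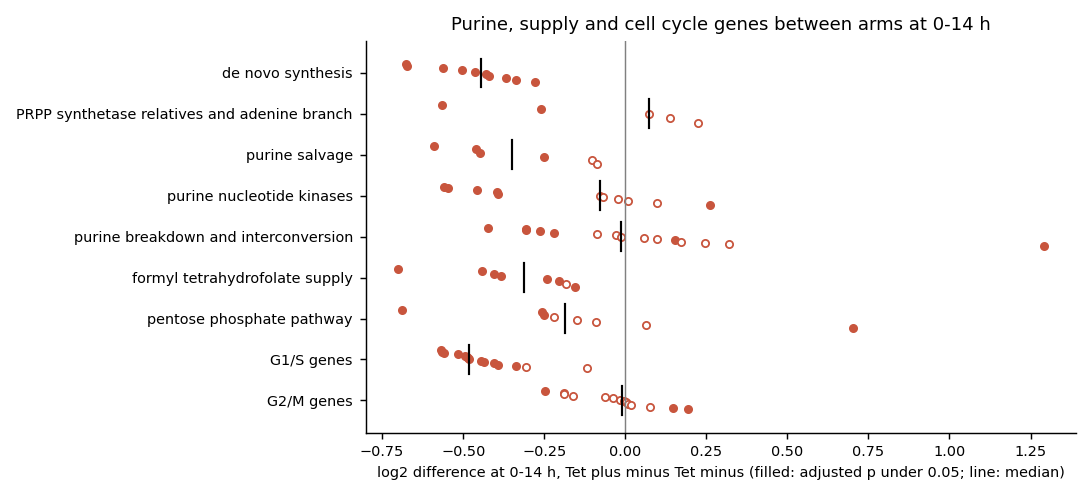
Log2 difference at 0 to 14 h (Tet plus minus Tet minus, x axis, TMM scaling) of each tested gene in the enzyme group, the 6 related lists and the cell cycle lists (rows), filled where the edgeR adjusted p was under 0.05, with the list median as a black line. The 10 enzymes are all filled and left of 0, as are 7 of the 8 formyl tetrahydrofolate genes.

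Over the 14 group means at 0 to 14 h the enzymes' log2 CPM values were correlated with each other, with both arms among the means. The 45 pairs of enzymes had Pearson r from 0.554 (ADSL and ATIC) to 0.985 (PAICS and GMPS), with a median of 0.821. Within an arm, over 7 means, the median r was 0.311 in Tet minus and 0.288 in Tet plus. PPAT and PAICS had r of 0.744 over the 14 means, 0.173 within Tet minus and -0.44 within Tet plus. These means share lanes, depth and arm, so the correlations are a description. Among 10090 genes whose mean log2 CPM was 3 or more, the 4 whose course over the 14 means was most like the enzymes' mean were WWC2 (r 0.991), NOLC1 (0.989), IPO5 (0.987) and PAQR7 (0.984). Their log2 differences between arms were -0.57, -0.75, -0.57 and -0.47.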

How the data were processed

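The authors deposited a single table of raw read counts, 1 row a gene and 1 column a library, in whole numbers. TopHat2 2.0.5, HTSeq and the hg19 build are named per the submitters' processing notes; the sources used here state neither the HTSeq version nor the annotation or strand setting. Per the labels' protocols, ERCC mix 1 was added, ribosomal RNA was depleted and directional libraries were made. The 92 ERCC rows were kept out of library sizes and tests.

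Counts were fitted with edgeR 4.0.16 in R 4.3.3 (TMM, filterByExpr by group, glmQLFit, glmQLFTest) in 1 model with 22 group means and 22 residual degrees of freedom, and p-values were adjusted by Benjamini-Hochberg over the 14534 tested genes (threshold 0.05). The SE is the log2 difference divided by the root of F. CPM used TMM library sizes, with a prior count of 2 in log2 CPM. Alternatives were RLE factors, DESeq2 1.42.0, no filter, ERCC scaling, replicate blocks, only the libraries compared, dropping 0 h, and leaving out each library. The steps were tested on simulated counts.

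Groups came from the labels. Named genes were the 10 enzymes, MYCN, up to 4 genes of each related list by adjusted p at 0 to 14 h, and the 5 genes most like the enzymes' mean. Genes of the cell cycle and marker lists are named as examples. Some genes that these rules cover are not reported here. The enzymes and the lists were chosen with earlier results of these data known. Promoter letters came from a RefSeq table of GRCh38.p14, whose build differs from that of the counts.

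Replicate numbers share lanes across arms at 0 to 14 h. Same-numbered libraries of both arms deviated together at each of the 11 times (lowest r 0.373 at 0 to 14 h and 0.263 at 16 to 22 h, over 10090 genes), so the numbers were taken to pair the arms. They also recur along the course, and the p-values for averages over times treat libraries of different times as independent. The chi-square statistic between replicates of a group was 8.90 to 51.3 per gene, above what sampling gives, so none was treated as a duplicate. Depth was 10.9 to 25.3 M counts, and the lowest count of an enzyme in a library was 213.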

Additional observations from a re-analysis of the deposited data

How the results depend on the processing

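At 0 to 14 h and at 16 to 22 h 10 of 10 enzymes were lower, and the count stayed at 10 with RLE factors, no filter, both replicate blocks and DESeq2, and at 9 (0 to 14 h) and 10 with only the libraries compared; leaving out a library gave 9 to 10 and 10 to 10. ERCC scaling gave 0 lower in each period, 0 of 70 and 0 of 40 enzyme and time combinations, 0 changing in Tet minus over 0 to 14 h and 0 from 16 to 22 h. At 16 to 22 h it turned the log2 difference to 3.66 for PRPS1, 3.58 for PPAT, 4.08 for GART, 3.67 for PFAS, 3.78 for PAICS, 4.06 for ADSL, 3.48 for ATIC, 3.41 for IMPDH1, 3.90 for IMPDH2, 4.10 for GMPS and 4.12 for MYCN, beside an all-gene median of 4.40 and a spike-in share far lower in those Tet plus libraries; the cause was not tested. With the replicate block, and with it by lane set, the combinations lower at 0 to 14 h rose from 20 to 43 and 52; leaving out a library gave 16 to 20 of 70 and 21 to 26 of 40. Enzymes changing over 0 to 14 h in Tet minus went from 1 to 2 and 2 (block, lane block) and to 0 with RLE factors, 0 with no filter and 0 with only the libraries compared, with a range of 0 to 1 on leaving out a library. In Tet plus they went from 0 to 1 and 2, and to 1 with DESeq2 (range 0 to 1). From 16 to 22 h the block, lane block and libraries-only fits gave 2, 5 and 3 enzymes in Tet plus in place of 0, and 3, 5 and 2 for the difference between arms (both ranges 0 to 0). The lane block gave 2 in Tet minus in place of 1 (range 0 to 1), and 1 from 0 to 6 h in Tet plus in place of 0. The other contrasts over time and the test of arm by time terms stayed at 0, also on leaving out each library. The combinations lower at 16 to 22 h went from 26 to 30 and 31. The blocks changed no enzyme's call in the averages over 0 to 14 h and over 16 to 22 h. Of the called genes named from the related lists, NT5E alone kept its call at 0 to 14 h under ERCC scaling. Over all genes the arm comparison at 0 to 14 h called 6019 genes, 5575 to 8111 under the alternatives other than ERCC scaling, left-out libraries included, and 48 under that scaling; at 16 to 22 h it called 7713, 7129 to 9100 and 14510. The 2106 and 1510 genes changing over 0 to 14 h in Tet minus and Tet plus ranged from 1243 to 5098 and from 1050 to 3904, and 59 and 51 passed under ERCC scaling. The lowest count in a library was 213 for ATIC and 431 or more for the other enzymes, so counting error is widest for ATIC.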

Other observations

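Most of these transcripts read higher in replicate 2 than in replicate 1 in most groups. An effect of the replicate number on them was not tested. Replicate differences also went together between the arms over 10090 genes (lowest r 0.373 at 0 to 14 h and 0.263 at 16 to 22 h). The share of all genes with counts like those below was not computed. GART was higher in replicate 2 than in replicate 1 in 22 of 22 groups, PRPS1, PAICS and GMPS in 20 of 22 each, and PPAT, ADSL and IMPDH2 in 18 of 22 each. IMPDH1 went the other way, with replicate 2 higher in 5 of 22 groups, and PFAS and ATIC had it higher in 8 of 22 each. The median gap between replicates of a group was 1.09-fold for PFAS and 1.18-fold for PPAT, PAICS and GMPS. These counts were made after the values were seen, the libraries of a replicate number share lanes within a lane set, and what else they share is not given in the labels.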
